A study of Danio rerio with 8 samples.

Results

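The transcripts with the highest array signal in the ovary of unexposed zebrafish are described here, as measured in the solvent-fed control pool of a study of dietary TCDD (2,3,7,8-tetrachlorodibenzo-p-dioxin, a ligand of the aryl hydrocarbon receptor). The study fed adult females of the AB strain, 6 to 8 months old, for 15 days on chow that carried 0 (acetone only), 10, 40 or 100 ppb TCDD (ng per g of food). Whole ovaries of 5 females per dose gave 1 RNA pool, with 3 µg from each female, and each of the 4 pools was hybridised to 2 Affymetrix zebrafish arrays. The control pool is therefore 2 of the 8 arrays of the series, both made from 1 RNA pool, so that their spread is technical and says nothing of variation between fish. Whole ovaries hold follicles of many stages together with blood, stroma and epithelium, and the stage composition of the pools is not given in the sources used here. Of 15617 probe sets, 115 array controls were left out, and the other 15502 were ranked by their level, the mean over both control arrays of log2(signal + 16) after quantile normalization of the pair. The 300 with the highest level were taken as the bright set. A signal depends on the probes as well as on the amount of a transcript, so the order is one of signal and not of transcript number.

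The fish oocyte grows over weeks and stores ribosomes, mitochondria and messenger RNAs that the embryo uses before its own genome becomes active. It is wrapped in an egg envelope built from zona pellucida (ZP) glycoproteins, which in zebrafish are made in the ovary itself. Around each oocyte lie granulosa and theca cells, which make steroid hormones, and between the follicles lie stroma, vessels and blood cells. Vitellogenins, the yolk precursors, are made mainly in the liver of egg-laying vertebrates and are taken up by the oocyte as protein.

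The bright set ran in level between 13.36 (rank 1) and 10.86 (rank 300), with a median of 11.55, against a median of 5.89 over all ranked probe sets. It held 29.2% of the summed deposited signal on array 1 and 33.2% on array 2. The median deposited signal was 62.25 on array 1 and 28.7 on array 2. After normalization the levels of the arrays correlated at r = 0.992 over all probe sets and at r = 0.971 within the bright set. Both values run across probe sets, and these do not stand for independent samples. The SD of the difference between the arrays was 0.122 in the bright set and 0.244 over all probe sets. Of the 300, 292 were also among the 300 brightest of array 1 alone and 294 among those of array 2 alone. In the pairs of values below, array 1 comes before array 2.

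Egg envelope genes stood high among the named probe sets, while most of the first 50 places could not be tied to 1 named gene. Of 15 listed egg envelope genes with a probe set of their own, 10 were in the bright set, against 217 of the 8793 genes (2.47%) that the array represents by a probe set with 1 symbol. The brightest named probe set of the ovary was that of zp2.6, a ZP2-type envelope glycoprotein, at rank 10 with levels of 12.67 and 12.65. Next among them came zp3.1, which was not on the list and which had both of its probe sets at ranks 13 and 14, with levels of 12.50 and 12.54 for the brighter one. The ZP-domain genes zpax1 (12.35 and 12.43, rank 18), zpax4 (12.05 and 12.20, rank 41), zp3f.1 (12.13 and 12.12, rank 42) and zp3a.1 (11.91 and 11.99, rank 70) followed. Both arrays, made from the same pool, gave these genes the same order of signal, except that zpax4 and zp3f.1 changed places.

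Copies of the ZP genes are close in sequence, and the array keeps 4 probe sets whose several symbols are all ZP genes. All of these 4 were in the bright set, 2 of them at ranks 2 and 7, with levels of 13.25 on both arrays and of 12.79 and 12.74. No single gene can be read from them. The listed members outside the bright set were still bright: zp3f.2, zp3d.2, zp2l2, zp3d.1 and zpd lay between ranks 572 and 2507, and all 15 listed genes were above the tag controls on both arrays. The tag controls are 17 probe sets that match no zebrafish transcript, and a probe set counted as above them where its deposited signal exceeded their 95th percentile, 7.1 on array 1 and 8.58 on array 2.

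**Figure D1:**
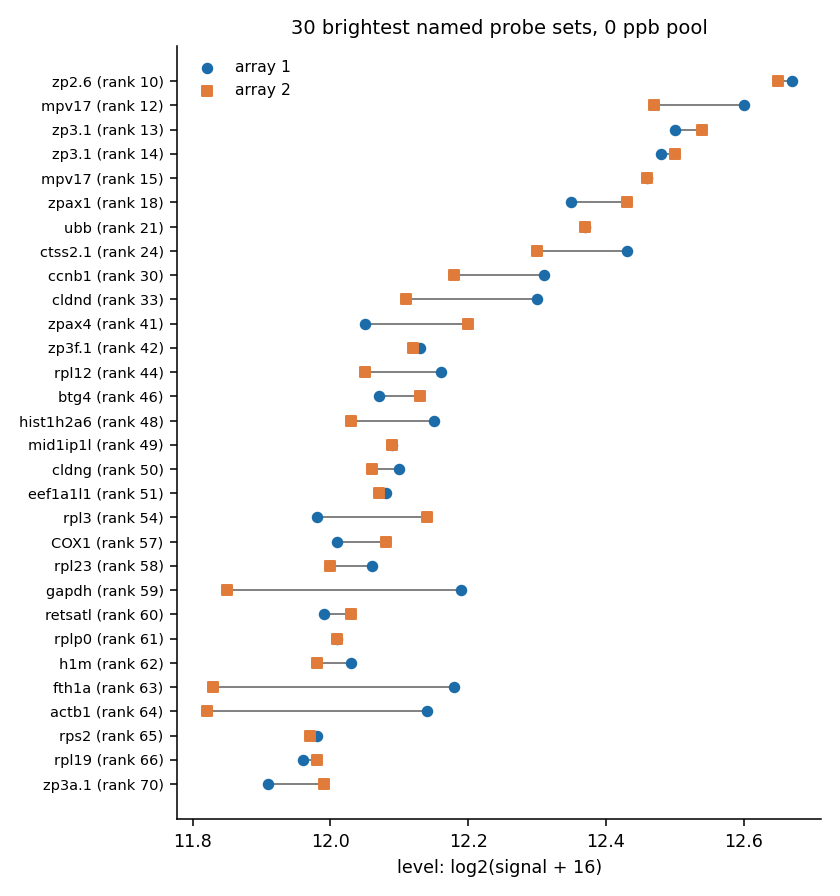
The 30 brightest probe sets with 1 gene symbol in the control pool, placeholder symbols left out, with the level log2(signal + 16) on the x axis and 1 point for each of the 2 arrays. ZP genes take much of the top of the plot, with mpv17 probe sets among them. Neighbouring probe sets mostly differ by no more than the gap between their arrays, which is widest here for fth1a at 0.35.

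Genes of the germline and oocyte list formed another bright group. Not all of them are held to mark the oocyte alone: ccnb1 and ccnb2 also stand on the list of cyclins and division below. All 37 germline and oocyte genes with a probe set were above the tag controls on both arrays, and 17 of them were in the bright set. The median rank of the list was 366, which is brighter than 97.6% of all probe sets, against 62.1% for the median of all 8793 genes. The brightest was ccnb1, cyclin B1, the partner of Cdk1 in the kinase that drives oocyte maturation, with levels of 12.31 and 12.18 (rank 30). Next came btg4, which in mouse oocytes is needed for the clearance of maternal messenger RNA, with 12.07 and 12.13 (rank 46), and h1m, the maternal linker histone, with 12.03 and 11.98 (rank 62).

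The maternal genes zar1l (11.87 and 11.54) and zar1 (11.61 and 11.74), named for the arrest of mouse zygotes that lack Zar1, held ranks 108 and 116. Transcripts that act in the early embryo were present at like levels: nanog (11.39 and 11.43, rank 174) and pou5f3 (11.27 and 11.34, rank 200), which in zebrafish take part in activating the zygotic genome, and gdf3, a TGF-beta family ligand of mesendoderm induction (11.16 and 11.07, rank 239). Regulators of the oocyte itself lay close by, with cpeb1b, which controls cytoplasmic polyadenylation, at 11.33 and 11.39 (rank 187), the maturation kinase mos at 11.18 and 11.03 (rank 243) and buc, the organiser of the Balbiani body, at 11.07 and 11.04 (rank 253).

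The other germline genes spread over a wide range of signal. The germ cell genes nanos3, dazl and dnd1, which act in germ plasm and primordial germ cells in zebrafish, lay at ranks 529, 835 and 1286. The germ plasm helicase ddx4 (vasa) had levels of 8.20 and 8.48 (rank 2502), and the piRNA pathway genes piwil2 and piwil1 lay at ranks 2653 and 4165. The oocyte transcription factor gene nobox (rank 6274) and igf2bp3 (rank 6991), which encodes an RNA-binding protein, were dimmer. The synaptonemal complex genes sycp1 and sycp3 had levels of 6.09 and 6.09 (rank 7352) and of 4.56 and 4.87 (rank 10715), the lowest of the list. Levels of different genes are given here as the order of their signals only.

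Ribosomal protein genes were the largest listed group. Of 75 genes for cytosolic ribosomal proteins, 60 were in the bright set, with 61 probe sets, and the median rank of the list was 183. These probe sets held 5.35% and 5.75% of the summed deposited signal. The brightest were rpl12 (12.16 and 12.05, rank 44), rpl3 (11.98 and 12.14, rank 54), rpl23 (12.06 and 12.00, rank 58) and rplp0 (12.01 on both arrays, rank 61). Of the 15 genes outside the set, rpl21 missed it by 2 ranks (302), and the dimmest was rps27l, a paralogue of a ribosomal protein gene, with levels of 8.29 and 8.06 at rank 2847.

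Other genes of the synthetic machinery were bright in part only. Of 64 translation factor genes 5 were in the set, led by the elongation factors eef1a1l1 (12.08 and 12.07, rank 51) and eef2b (11.82 and 11.89, rank 84). Of 92 nuclear genes of the respiratory chain and ATP synthase 6 were, led by atp5mc3b (11.77 and 11.76, rank 99). The mitochondrially encoded COX1, cytochrome c oxidase subunit 1, was not on that list and had all 3 of its probe sets in the set, at ranks 57, 106 and 188. Of 72 chaperone and isomerase genes 6 were, led by the cyclophilin gene ppiaa (11.83 and 11.88, rank 86) and hspa8 (11.76 and 11.64, rank 109), and of 88 genes for RNA binding and splicing 5 were, led by hnrnpa0l (11.62 and 11.68, rank 119). None of 50 proteasome genes was in the set, though all 50 were above the tag controls on at least 1 array and their median rank was 2134.5.

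Division genes were also in the bright set. Of 38 genes on the list of cyclins and division, 9 were in the set: ccnb1, birc5b (rank 141), cdca7a (163), ccna1 (170), ccnb2 (199), plk1 (251), cdc20 (265), ccng1 (274) and ccna2 (294). Cytoskeletal and lysosomal genes were represented by the actins actb1 (12.14 and 11.82, rank 64) and actb2 (11.76 and 11.78, rank 97), the tubulins tuba4l (rank 72), tuba8l4 (75) and tubb4b (189), and the cathepsins ctss2.1 (12.43 and 12.30, rank 24), ctsba (143) and ctsla (249). Cathepsins are lysosomal proteases, some of which process yolk proteins in fish oocytes. Ubiquitin itself, ubb, had a level of 12.37 on both arrays (rank 21). Of 24 claudin genes, which encode tight junction proteins, cldnd (12.30 and 12.11, rank 33) and cldng (12.10 and 12.06, rank 50) were in the set, while 10 were not above the tag controls on either array.

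**Figure D2:**
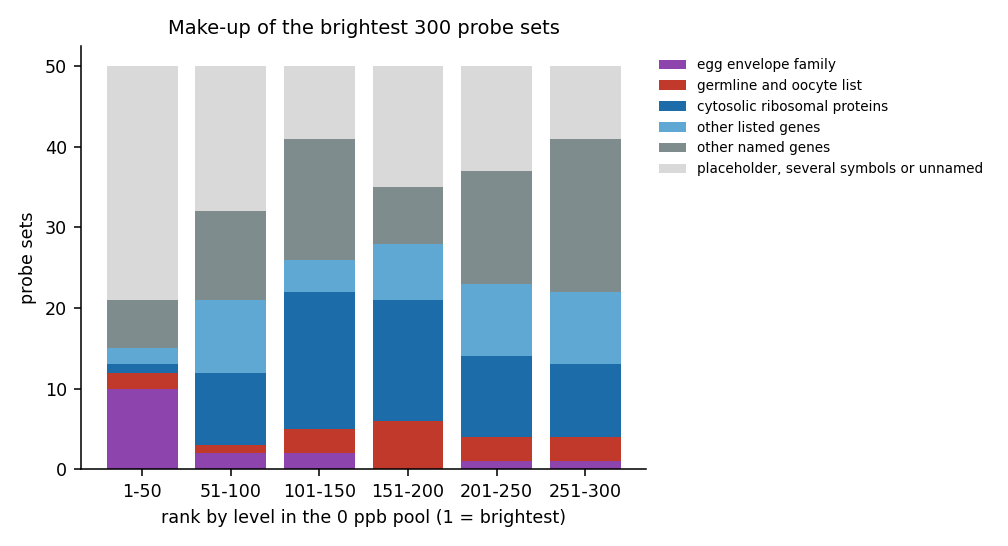
Number of probe sets (y axis) in each block of 50 ranks of the bright set (x axis), split by kind. The egg envelope family, ZP probe sets with several symbols included, takes 10 of the first 50 places. Outside this family 29 of the first 50 places have a placeholder symbol, several symbols or no name. Ribosomal proteins peak at 17 in ranks 101 to 150.

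Another 58 named genes, with 66 probe sets, were on no list. The brightest was mpv17, whose human counterpart is a protein of the inner mitochondrial membrane, with levels of 12.60 and 12.47 (rank 12). Next came zp3.1, mid1ip1l, a maternal-effect gene of the zebrafish egg (12.09 on both arrays, rank 49), COX1, retsatl, a retinol saturase-like gene (11.99 and 12.03, rank 60), and the ferritin heavy chain gene fth1a (12.18 and 11.83, rank 63). Among the dimmer ones were pcna, the sliding clamp of DNA replication (rank 250), the maintenance DNA methyltransferase dnmt1 (rank 267), the importin-alpha genes kpna7 and kpna2 (ranks 223 and 230) and the lipoprotein receptor gene scarb1 (rank 205). These genes were picked from the remainder after their ranks were seen.

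Part of the bright set could not be tied to 1 gene. Of the 300, 235 probe sets had 1 symbol (32 of them a placeholder), 25 had several and 40 were unnamed here. Several symbols were carried by 8.33% of the bright set, against 0.871% of all ranked probe sets, and no name by 13.3%, against 29.5%. Probe sets with the suffix x, which marks probes that also match other sequences, made up 11% of the bright set and 2.01% of all. The mpv17 probe set of rank 12 has this suffix, so its level may not be that of mpv17 alone. The brightest probe set of the array carried 2 placeholder symbols and had a level of 13.36 on both arrays, and zgc:173856, a placeholder, had all 4 of its probe sets in the set, at ranks 20, 28, 96 and 299.

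Probe sets for the same gene did not always give the same level. Of 217 genes in the bright set, 27 had more than 1 single-symbol probe set, and for 11 of these every one was in the set. For 6 genes another probe set lay in the dimmer part of the ranking. For mpv17 3 probe sets lay in the set and the other at rank 12763, not above the tag controls, and for the chaperone gene hsp90ab1 the probe sets lay at ranks 178 and 13777. For epcam they lay at ranks 73 and 8293, and for ppiaa at ranks 86 and 8368. The ubb probe sets lay at ranks 21 and 2500, with levels of 12.37 and 8.34. Where a list is described above or below, a gene stands at the rank of its brightest probe set.

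Genes of the granulosa and theca were dim as a list. None of 28 follicle genes with a probe set was in the bright set, the median rank was 10448, and 13 were above the tag controls on both arrays, 6 on 1 and 9 on neither. In a whole-organ sample, fewer cells of a type and less RNA per cell cannot be told apart. The brightest was fdx1, a ferredoxin gene (10.39 and 10.35, rank 420), which is not taken here as a marker of steroid-making cells. Then came vldlr, a receptor of the family that takes up vitellogenin into oocytes (10.48 and 10.10, rank 448). It was followed by cyp17a1, the 17-hydroxylase and lyase of steroid synthesis (8.97 and 9.12, rank 1299). The progesterone-binding membrane protein gene pgrmc1 (8.49 and 8.32, rank 2361) and hsd3b2, a 3-beta-hydroxysteroid dehydrogenase (7.43 and 7.42, rank 4561), came after them. In fish vldlr acts at the oocyte surface, so that it does not mark follicle cells alone.

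The known markers of granulosa cells lay lower. The granulosa genes gsdf (5.74 and 5.64) and cyp19a1a, aromatase (5.72 and 5.62), lay at ranks 8143 and 8179, close to the median of all probe sets, and star, the cholesterol carrier of steroidogenesis, had levels of 5.15 and 5.49 (rank 8951). The 9 genes not above the tag controls on either array were amh, fshr, gata4, kita, nr5a1a, nr5a1b, nr5a2, paqr7b and wt1a, among them the receptor for follicle-stimulating hormone and the hormone AMH. Their deposited signals lay between 0.3 and 8.1, and such a value is a bound and not a level.

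Red cell genes were detectable in part only and dim as a list. Of 20 listed erythroid genes, 9 were above the tag controls on both arrays and 6 on neither, and the median rank was 10494. The 1 member in the bright set was cldng, which is a claudin gene and no marker of red cells. It is included in these counts and in the median, and is left aside in what follows. The brightest of the others were blvrb, biliverdin reductase B (8.74 and 8.70, rank 1764), and hbaa1, adult alpha globin (8.52 and 8.63, rank 2017), while the beta globin gene hbba2 had levels of 5.30 and 5.50 (rank 8753). The globin genes are close copies of each other, and signals of single copies are uncertain. The erythroid transcription factor genes gata1a, klf1 and tal1 and the embryonic globin genes hbbe2 and hbbe3 were not above the tag controls.

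White cell genes lay at middle ranks. Of 19 leukocyte genes 15 were above the tag controls on both arrays, none was in the bright set, and the median rank was 7455. The brightest were the mast cell carboxypeptidase gene cpa5 (8.00 and 8.08, rank 3133), the MHC class II invariant chain genes cd74a (8.05 and 7.55, rank 3671) and cd74b (7.49 and 7.44, rank 4470), cebpb (rank 5387) and grna, progranulin (rank 5806). The macrophage receptor gene csf1ra was the 1 member not above the tag controls on either array (rank 14611).

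Stromal genes lay slightly brighter, with a median rank of 7119. Of 24 genes for fibroblasts and matrix, 19 were above the tag controls on both arrays. One, thy1, a surface glycoprotein of fibroblasts and other cells, was in the bright set, with levels of 11.24 and 11.26 (rank 212), and the collagenase gene mmp13a followed with 9.77 and 9.66 (rank 701). The other members lay much further down, led by fn1a, fibronectin (7.48 and 7.49, rank 4410), ctsk, cathepsin K (7.45 on both arrays, rank 4498) and col1a1a, the alpha-1 chain of type I collagen (7.23 and 7.29, rank 4949). The matrix genes fbln1 and loxa and the mesenchymal factor twist1a were not above the tag controls.

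Of the cell type lists other than germline and egg envelope, surface epithelium had the brightest median, at rank 3132 over 17 genes. Its brightest member, epcam, an epithelial adhesion molecule, had levels of 11.74 and 12.14 (rank 73), and this gap of 0.40 was the largest between the control arrays in the bright set. It was followed by the keratin gene krt8 (10.06 and 10.39, rank 477) and anxa1a (9.82 and 9.74, rank 669). Of 11 smooth muscle genes the brightest was acta2 (7.91 and 8.05, rank 3255), and of 4 endothelial genes the brightest was kdrl, a VEGF receptor (5.66 and 5.92, rank 7932).

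Lists for other organs differed in level, and those for liver and pancreas had brighter medians than the follicle and erythroid lists. Of 24 liver and yolk genes 23 were above the tag controls on both arrays, with a median rank of 8447. The yolk precursor gene vtg2 was in the bright set (mean level 10.88, rank 295), vtg4 lay at rank 978 and the liver plasma protein gene tfa, transferrin, at rank 3765. The median ranks were 9117 for 15 pancreas genes, 11226 for 18 neural genes, 11244 for 8 gut genes, 11382 for 16 skeletal muscle genes and 12443 for 14 genes of the eye. In the muscle list 6 genes were not above the tag controls on either array, among them atp2a1 and the muscle regulator myod1, and in the eye list 7, among them cryaa and the photoreceptor factor crx. The median of the follicle list, 4.78, was near those of the neural list, 4.61, and the gut list, 4.61, and below that of the stroma list, 6.23. With all 8 arrays normalized together, the lowest level above the tag controls was 4.44 on control array 1 and 4.78 on array 2. The follicle, neural and gut medians, and the erythroid median of 4.77, thus lay near the detection floor, and nothing is read from their distances.

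**Figure D3:**
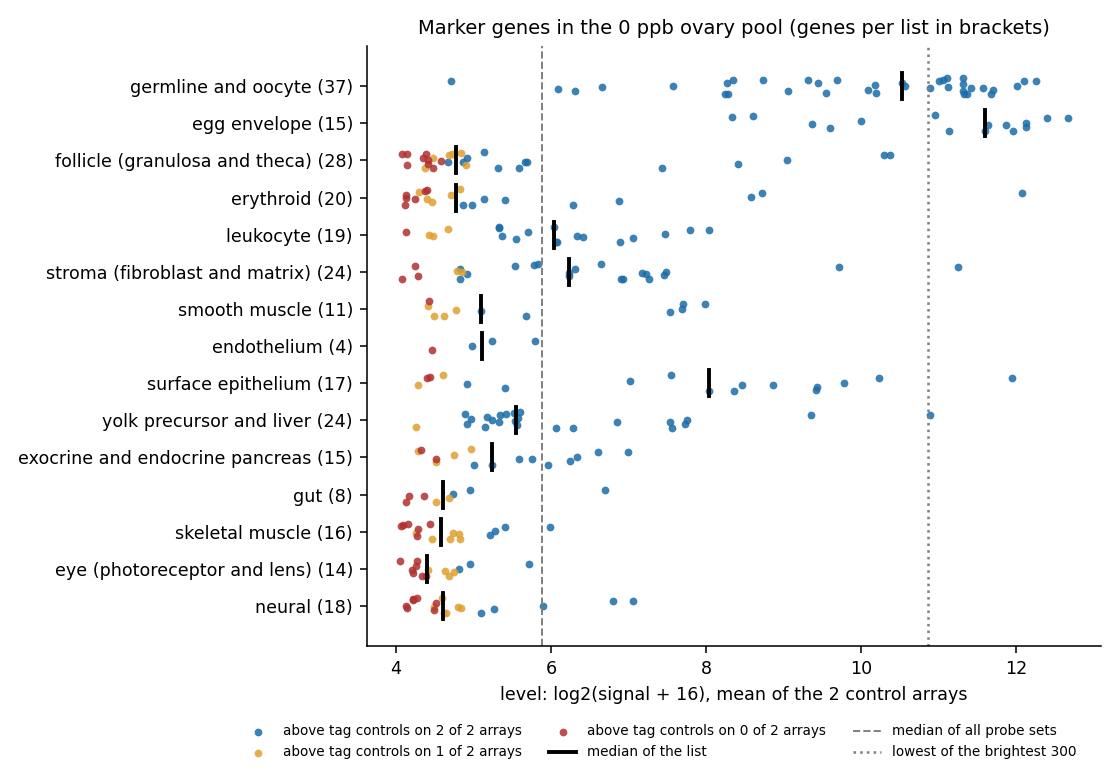
Level of each marker gene in the control pool (x axis, log2(signal + 16), mean of the 2 arrays) by list, with a black bar at the list's median and the colour giving the number of arrays on which the gene was above the tag controls. The germline and egg envelope lists sit at medians of 10.52 and 11.60, while the follicle and erythroid lists sit at 4.78 and 4.77, below the dashed median of all probe sets at 5.89.

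Over the whole array, 3108 of 15502 probe sets (20%) were not above the tag controls on either control array, 2019 on 1 of them and 10375 were above on both. Of 8176 named genes, 914 (11.2%) had every probe set in the first group. All 300 of the bright set were above on both arrays. The rank limit cut through a dense region: just inside it lay hmgn1a (10.88), zgc:173856 (10.87) and h2az2b (10.86), and just outside lay gmnn, rpl21 and ldhba, all at 10.86, so membership near the limit rests on differences far smaller than the 0.122 SD between the arrays.

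Few genes of the bright set were neighbours in the genome. In the gene order of the RefSeq annotation of assembly GRCz12tu, 6 of 212 placed genes (2.83%) lay next to another gene of the set, in 3 pairs: zp3a.1 with zp3a.2, rps20 with zgc:56231, and zgc:171474 with zgc:173856. Of the other 8471 genes of the array, 162 (1.91%) lay next to a gene of the set.

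The order of the control pool held largely in the exposed pools, which the ranking did not use. All 8 arrays were normalized together for this purpose. Of the 300, 282 were also among the 300 brightest of the 10 ppb pool, 278 of the 40 ppb pool and 276 of the 100 ppb pool, and 265 were so in all 3. Among the cell type lists, egg envelope and germline had the brightest medians at every dose, and others changed places. At every dose a gene stood at the probe set that was brightest in the control pool. The control values thus helped to choose the probe sets on which the pools are set side by side. The germline list lay at 10.56, 10.41, 10.45 and 10.70 at 0, 10, 40 and 100 ppb, the follicle list at 4.77, 4.69, 4.76 and 4.66, and the stroma list at 6.13, 5.55, 5.78 and 5.54. The follicle medians lay near the lowest levels above the tag controls, which ran between 4.44 and 4.94 over the 8 arrays. The leukocyte list lay at 5.91, 5.49, 5.28 and 5.14 and the surface epithelium list at 7.96, 7.41, 6.45 and 6.43. Taken gene by gene, the median difference from 0 ppb at 10, 40 and 100 ppb was -0.23, -0.47 and -0.45 for the leukocyte list. It was -0.26, -0.95 and -0.24 for surface epithelium and -0.29, -0.19 and -0.38 for stroma. The list medians thus overstate the change of a typical gene, and the gene differences did not fall steadily with dose. The list for liver and yolk lay at 5.50, 8.36, 5.35 and 5.76, below the stroma and leukocyte lists at 0 ppb and above both at 10 and 100 ppb. These differences between medians were not tested.

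The values of the exposed pools did not choose the 300. The control arrays, which did, still entered the normalization, the filter and the shared spread of the fit. With 1 RNA pool per dose, dose and pool cannot be told apart. Comparisons between exposed pools asked whether the bright transcripts of the ovary differed between these pools. They were made with limma over all 9301 probe sets past a filter on dim signal, which all 300 passed, and a call needed a Benjamini-Hochberg adjusted p under 0.05 together with a log2 difference of 1 or more either way. These p-values rest on the spread between arrays of a pool and not between fish. For 100 against 10 ppb 5 of the 300 were called (1.67%), against 1.59% of all probe sets tested. Of these 5, 3 were higher at 100 ppb (1%, against 0.516% of all tested) and 2 lower (0.667%, against 1.08%). The 3 higher ones were vtg probe sets whose identifiers share a stem, so they do not count as 3 separate results. For 100 against 40 ppb 2 were called (0.667%), against 0.43% of all tested, both of them lower (against 0.269%). For 40 against 10 ppb 1 was called (0.333%), against 0.978%, and it was higher (against 0.301%). These counts are of 5 or fewer probe sets, and the shares lie near the background.

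Most of the 300 differed little between exposed pools. Between 100 and 10 ppb 290 of the 300 differed by less than 0.5 on the log2 scale, between 100 and 40 ppb 297 and between 40 and 10 ppb 292. The median difference was 0.00045, -0.0053 and 0.0076 in these comparisons, against 0.021, 0.0036 and 0.021 over all probe sets tested. The SD of the differences was 0.378, 0.425 and 0.263, against 0.391, 0.27 and 0.36 over all probe sets tested. The members thus did not spread less than all probe sets in every comparison. The share of all within 0.5 was not counted, so the counts of 290, 297 and 292 do not set the bright set apart. None of the 61 ribosomal protein probe sets was called, and their differences between 100 and 10 ppb ran between -0.31 and 0.13. None of the 16 egg envelope probe sets was called, with differences between -0.17 and 0.34. None of the 18 germline and oocyte probe sets was either, with differences between -0.21 and 0.53. For 100 against 10 ppb 1.59% of all probe sets tested were called, so groups of this size would hold few calls at that share.

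Without the minimum size, 12 members passed for 100 against 10 ppb (4%), against 3.57% of all probe sets tested. Those under the size asked for went both ways. The named kif20a, bzw1b and hist1h2a6 were lower at 100 ppb, with differences of -0.60, -0.53 and -0.39. So were zgc:113984 (-0.42) and the probe set of rank 23 (-0.39). The probe set of rank 235 was higher by 0.96. The gene btg4, the mouse counterpart of which acts in maternal messenger RNA clearance, was higher too. It had levels of 12.26 and 12.34 in the 0 ppb pool, 12.03 and 12.14 in the 10 ppb pool, 12.16 on both arrays in the 40 ppb pool and 12.56 on both in the 100 ppb pool. The arrays of the 100 ppb pool lay above all others, with a difference of 0.48 from 10 ppb (limma adjusted p = 0.00744) and of 0.40 from 40 ppb (limma adjusted p = 0.0419), both under the size asked for.

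**Figure D4:**
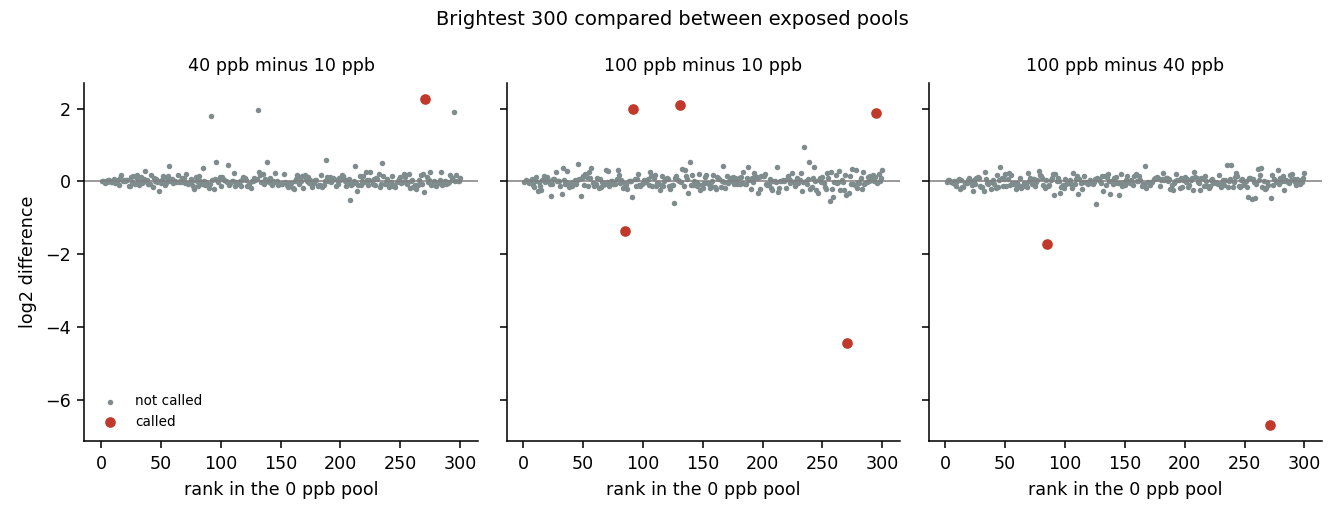
Log2 difference (y axis) of each of the 300 probe sets between exposed pools, by its rank in the control pool (x axis), with called probe sets in red. Nearly all points lie within 0.5 of 0, and the called ones stand at 1.35 or more from it. The share of all probe sets within 0.5 was not counted.

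Yolk precursor probe sets made up 3 of the 5 called between 100 and 10 ppb. Their identifiers share a stem and their levels ran alike over the arrays, so they are not 3 separate results. The vtg2 probe set had levels of 10.75 and 11.04 in the 0 ppb pool, 7.04 and 8.83 in the 10 ppb pool, 9.49 and 10.20 in the 40 ppb pool and 9.63 and 10.01 in the 100 ppb pool. Both arrays at 100 ppb lay above both at 10 ppb, with a difference of 1.89 ± 0.44 (SE, 2 arrays per pool, limma adjusted p = 0.0442). The 2 probe sets whose several symbols are all vtg genes, at ranks 92 and 131, were higher by 2.00 and 2.09 (limma adjusted p = 0.0427 and 0.0386), and the difference between 40 and 10 ppb was of like size in all 3 but not called (limma adjusted p = 0.0751 to 0.113). With the replicate number as a block all 3 were called for 40 against 10 ppb too (limma adjusted p = 0.0088 to 0.0184). With the run day as a block, chosen after seeing the data, the differences were 1.07 to 1.24. In that fit 10 ppb replicate 1 is the only array of its day, so the 10 ppb level rests on replicate 2 alone.

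The size of the yolk differences depended on the arrays of the 10 ppb pool, which differed from each other by 1.79 in vtg2. On the day when replicate 2 of every pool was run, 100 ppb exceeded 10 ppb by 1.18 for vtg2. For the others it did so by 1.36 and 1.28. With the day as a block the differences were 1.22 to 1.26, where the 10 ppb level again rests on replicate 2 alone. Without 10 ppb replicate 1 the differences were 0.99 for vtg2, under the size asked for, and 1.04 and 1.08 for the others. Leaving out 10 ppb replicate 2 instead gave 2.78, 2.96 and 3.10. Without either 100 ppb array none of the 3 was called (limma adjusted p = 0.153 to 0.336), with differences of 1.68 to 2.32. The liver list moved the other way: it was brighter at 10 ppb, where the vtg probe sets were lowest. Leaving out the vtg genes, its 21 genes had array medians of 5.42 and 5.41 in the 0 ppb pool, 9.63 and 7.41 in the 10 ppb pool, 5.03 and 5.16 in the 40 ppb pool and 5.34 and 5.65 in the 100 ppb pool. Their summed signal lay between 1009 and 1092 in the 0 ppb pool, 5393 and 20215 in the 10 ppb pool, 747 and 880 in the 40 ppb pool and 1243 and 1284 in the 100 ppb pool, and all 21 were above the tag controls on both arrays at 10 ppb. The part of liver RNA in the vtg differences was not tested.

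The other called members were unnamed here. The probe set of rank 271 had levels of 11.13 and 10.81 in the 0 ppb pool, 9.53 and 7.82 in the 10 ppb pool, 11.06 and 10.80 in the 40 ppb pool and 4.21 and 4.26 in the 100 ppb pool. At 100 ppb its deposited signals were 3.8 and 2.6, and it was the 1 member of the bright set not above the tag controls on any array of a pool. Against its level at 40 ppb it was thus at least 71.4-fold lower at 100 ppb (fitted log2 difference -6.70, limma adjusted p = 2.05e-05), and against 10 ppb at least 14.95-fold lower (fitted -4.44, limma adjusted p = 0.00029). These bounds set a dim array at the lowest level above its tag controls. The bound against 10 ppb was 8.25-fold without 10 ppb replicate 1 and 27.1-fold when replicate 2 was left out instead. At 40 ppb it was higher than at 10 ppb by 2.26 (limma adjusted p = 0.0187), a call that was lost without either 40 ppb array (limma adjusted p = 0.214 and 0.133). This difference was 3.11 without 10 ppb replicate 1 and 1.40 when replicate 2 was left out instead. The fall against 40 ppb was 6.85 and 6.54 on the 2 days that both pools share. The epcam probe set of rank 73, whose identifier differs from this one only in its suffix, had mean levels of 12.11, 12.33, 12.27 and 12.34 at 0, 10, 40 and 100 ppb.

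The unnamed probe set of rank 85 had levels of 12.08 and 11.90 in the 0 ppb pool, 11.14 and 11.17 in the 10 ppb pool, 11.58 and 11.46 in the 40 ppb pool and 9.77 and 9.84 in the 100 ppb pool. Both arrays at 100 ppb lay below those of every other pool. It fell by 1.35 against 10 ppb (SE 0.093, limma adjusted p = 5.98e-05) and fell by 1.72 against 40 ppb (limma adjusted p = 1.21e-05), and the difference from 40 ppb was -1.81 and -1.62 on the 2 shared days. With the deposited scaling both calls were lost, with differences of -1.05 and -1.87 (limma adjusted p = 0.9993 and 0.9999).

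**Figure D5:**
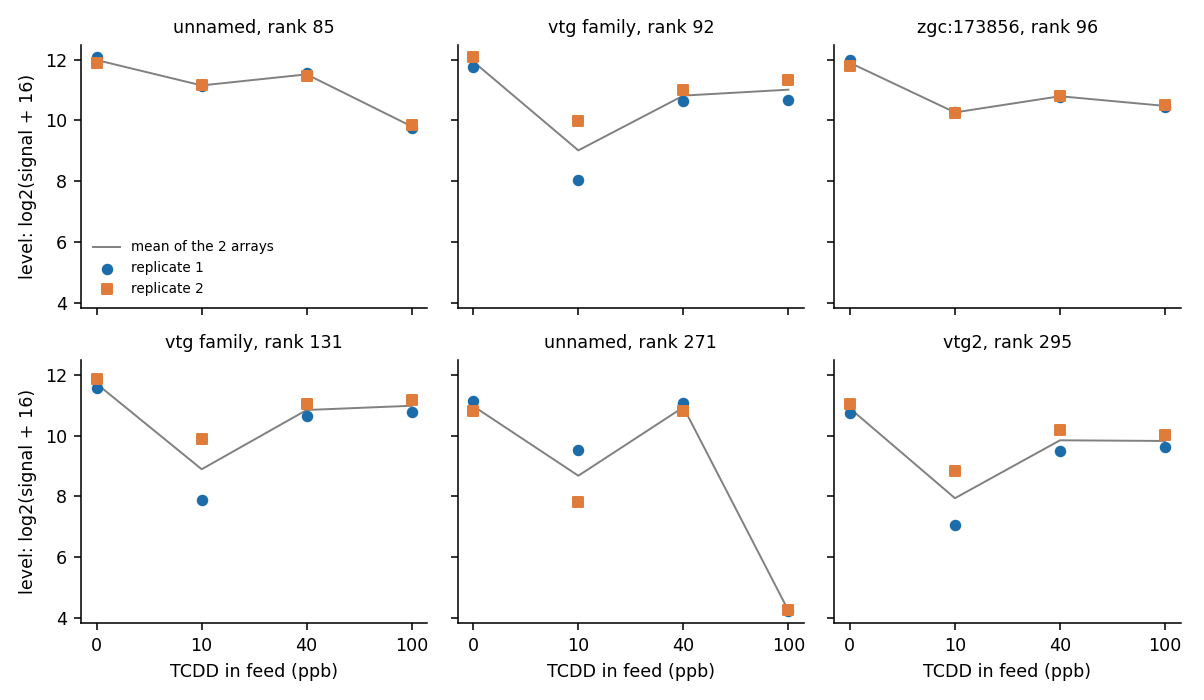
Level (y axis, log2(signal + 16), all 8 arrays normalized together) of the 6 members of the bright set that were called in any comparison, by dose of TCDD in the feed (x axis, doses evenly spaced), with 1 point for each array. The vtg probe sets are lowest at 10 ppb, where their arrays lie 1.79 or more apart, and the unnamed probe set of rank 271 drops to 4.24 at 100 ppb. The zgc:173856 probe set was called only against the control pool, whose values chose the set.

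Against the control pool the choice of the 300 bears on the result, since members were picked for high control signal, and nothing is read from these counts. At 10 ppb 5 members were called (1.67%), against 1.11% of all probe sets tested, at 40 ppb 1 (0.333%), against 0.344%, and at 100 ppb 3 (1%), against 1.25%. Every one of them was lower in the exposed pool, a direction in which 0.462%, 0.301% and 0.946% of all tested probe sets were called. The 1 called at all doses was the zgc:173856 probe set of rank 96. In the main fit it was called in no comparison between exposed pools. Its control levels helped to choose it, so no effect of TCDD is read from its calls. This probe set had levels of 11.99 and 11.81 in the 0 ppb pool, 10.29 and 10.24 in the 10 ppb pool, 10.78 and 10.82 in the 40 ppb pool and 10.46 and 10.50 in the 100 ppb pool. Of the other probe sets of the same symbol, those of ranks 20 and 28 differed from 0 ppb by -0.13 to 0.07, and that of rank 299 lay higher by 0.33, 0.33 and 0.43 at 10, 40 and 100 ppb. None of these was called.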

How the data were processed

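Each array has 1 deposited intensity for each probe set, on a linear scale. These are MAS5 signals per the submitters' processing notes. The sources used here give neither the version nor the scaling target of MAS5. Fluidics and scanner settings, deposited beside them (other values than expression, per the file headers), served to group the arrays by run day. Replicate 1 of the 10 ppb pool ran on day 1, replicate 1 of the other pools on day 2, and replicate 2 of all pools on day 3.

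The platform annotation gave 1 symbol to 10795 of 15502 probe sets, several to 135 and none to 4572. A current RefSeq gene table matched 10711 by identifier and updated 1 symbol. Probe sets with several symbols named no gene. No sequences were used, and the gene order came from the same table, built on assembly GRCz12tu.

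Levels were log2(signal + 16), quantile normalized over the 2 control arrays for the ranking, or over all 8 arrays where pools were set side by side. Fitted differences understate changes of dim probe sets. The ranking and the list medians are descriptions with no test, since they use the values that chose the members. Exposed pools were compared with limma 3.58.1 in R 4.3.3 (4 group means over 8 arrays, eBayes with trend, 10.5 degrees of freedom with the prior), on the 9301 whose mean level passed the 40th percentile. The fit was tested on simulated data. The number of arrays limits the precision.

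There were 15 lists of cell type markers and 15 of symbol patterns. The bright set, the lists and the tests were chosen with earlier results of these data known. The named genes are, among probe sets with 1 symbol and placeholders passed over, the 30 brightest, up to 5 of each marker list and 4 of each pattern list by level, up to 4 per marker list not above the tag controls, the edge of the set, the 5 largest differences between control arrays, and members called between exposed pools; not every one is printed, and further list members were named after their ranks were seen. Alternatives were other scaling, pseudocount 1, other filters and thresholds, blocks for replicate number and day, fewer pools, and each array left out.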

Additional observations from a re-analysis of the deposited data

How the results depend on the processing

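All 300 bright probe sets were kept with the deposited scaling and with pseudocount 1, and 299 with quantile normalization over all 8 arrays. With either control array left out 292 to 294 were kept. The count of ribosomal protein genes among them stayed at 60 under the same 3 settings and was 60 to 63 with an array left out. List medians moved by less than the SD between the control arrays in 70 of 90 recomputations. These include the single arrays that gave this SD, so the count is no separate check. The germline, follicle, erythroid, leukocyte and stroma lists all moved by more with the mean of a gene's probe sets. With the mean of a gene's probe sets in place of the brightest, the median of the germline list was brighter than 96.9% of all probe sets, of the follicle list 31.1%, of the erythroid list 29.8%, of the leukocyte list 47.6% and of the stroma list 48.9%. With an array left out these shares were 97.5% to 97.7%, 31.5% to 32.8%, 31.6% to 33.7%, 50.3% to 52.1% and 52.2% to 55.8%. The number of probe sets not above the tag controls depended on the threshold: it was 1059 with the median tag control and 3278 with the highest, and 3185 to 5050 with 1 array in place of both.

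Of the bright set, calls between 100 and 10 ppb numbered 3 with deposited scaling, 2 without the filter on dim probe sets, 3 with the filter at the 60th percentile, 2 with only the 2 pools compared, 12 with no minimum difference and 2 to 5 with an array left out. The lost calls were vtg probe sets, and with deposited scaling also the probe set of rank 85, whose call against 40 ppb was lost there too. Calls between 100 and 40 ppb numbered 1 with deposited scaling (4 of 9301), against 2 in the main fit (40 of 9301). Those between 40 and 10 ppb numbered 4 with deposited scaling (61 of 9301) and 0 with only the 2 pools compared (10 of 9301). With no minimum difference they numbered 2 (137 of 9301), and in the main fit 1 (91 of 9301). The count of 0 stands beside 25 members at an unadjusted limma p under 0.05 in the fit of all pools (8.33%, against 9.77% of all tested). The cause of these changes was not tested. The fit had fewer degrees of freedom than the main fit with only the 2 pools compared. The same held without a 40 or 100 ppb array. Without 10 ppb replicate 1 or 2 it had more than the main fit, at 10.87 and 10.77. With deposited scaling it had 37200, and the SE of the probe set of rank 85 was 0.58, larger than in the main fit.

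The replicate numbers share no source in the labels. Same-numbered arrays of 2 pools deviated together with r between 0.0027 and 0.17, not over 0.1 in every pair. With the replicate number as a block 5, 2 and 4 members were called for 100 against 10 ppb, 100 against 40 ppb and 40 against 10 ppb. With the run day as a block, chosen after seeing the data, 2 were called for 100 against 40 ppb. Counts against 10 ppb are left out, since there 10 ppb replicate 1 is the only array of its day. For 40 against 10 ppb the 3 vtg probe sets were gained with the replicate block and with deposited scaling.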
